A study of Mus musculus with 6 samples.

Results

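Transcripts of 6 inhibitors of cyclin-dependent kinases (CDKs), of the tumor suppressor p53 (Trp53) and of its ubiquitin ligase Mdm2 were examined on Affymetrix arrays of mouse embryonic stem cells (ESCs) and of neural precursor cells (NPCs) made from them. The 8 genes were picked by Ensembl identifier from the 17144 genes of the arrays, in the order Cdkn1a, Cdkn1b, Cdkn1c, Cdkn2a, Cdkn2b, Cdkn2c, Trp53 and Mdm2, and all 8 had a row. They were picked with the values of these arrays known, in particular that Cdkn2a differs among the NPC arrays, so the differences between ESCs and NPCs given for them are descriptions and carry no test. Names of 2 of the 8, Cdkn2a and Cdkn2c, were also matched to a named row of the authors' printed values, and the pairing of symbol and identifier for the other 6 could not be checked against the tables at hand. The ESCs were wild type cells of line V6.5, derived from a blastocyst of 129SvJae/C57B6 F1 background and grown with serum and LIF. The NPCs were wild type cells of the same background, differentiated in vitro and propagated on polyornithine and laminin, with bFGF and EGF in N3 medium. Each cell type has 3 arrays, which the labels call biological replicates, namely ES1, ES2 and ES3 for ESCs and NP106, NP107 and NP39 for NPCs. All cells come from 1 ESC line, and what separates the NPC preparations from each other is not given in the sources used here.

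CDK inhibitors are small proteins that hold the cell cycle in check. The CIP/KIP members p21 (Cdkn1a), p27 (Cdkn1b) and p57 (Cdkn1c) bind complexes of cyclins with CDKs, while the INK4 members p16 (from Cdkn2a), p15 (Cdkn2b) and p18 (Cdkn2c) bind CDK4 and CDK6 and keep them from the D-type cyclins, so that RB proteins stay active. Cdkn2a also encodes p19ARF through another first exon and another reading frame, and this protein restrains Mdm2, which marks p53 for degradation. p53 in turn activates transcription of Cdkn1a and of Mdm2 itself. ESCs divide quickly with a short G1 phase. In neural progenitors of the brain p18, p27 and p57 are known for their part in leaving the cell cycle, and repression of Cdkn2a by Bmi1 for upholding self-renewal.

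The sequences before the transcription starts of the genes on which the results turn are given here from RefSeq (build GRCm38.p6), since Cdkn1a and Mdm2 are classical targets of p53 and since Cdkn2a has separate starts for its separate products. Promoter windows were at hand for 7 of the 8 genes, 10 windows in all, and only the 250 bases before each start were read. The 3 lines with Cdkn1a, Mdm2 and Trp53 show in capitals each match to the p53 half-site consensus, a motif of 10 bases that is its own reverse complement, and each line runs 5′ to 3′ on the strand of the gene.
Cdkn1a, upstream start, chr17:29090729-29090978, plus strand: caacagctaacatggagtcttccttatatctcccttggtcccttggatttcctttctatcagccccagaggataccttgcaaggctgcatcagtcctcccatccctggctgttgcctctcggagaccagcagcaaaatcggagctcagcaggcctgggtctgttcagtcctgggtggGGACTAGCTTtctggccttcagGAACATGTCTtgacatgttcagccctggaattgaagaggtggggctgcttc
Mdm2, chr10:117710759-117711008, minus strand: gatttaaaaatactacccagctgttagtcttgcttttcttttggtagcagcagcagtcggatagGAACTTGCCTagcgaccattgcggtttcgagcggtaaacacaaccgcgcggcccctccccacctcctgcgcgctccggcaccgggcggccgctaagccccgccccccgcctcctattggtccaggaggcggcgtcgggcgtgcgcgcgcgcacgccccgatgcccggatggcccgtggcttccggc
Trp53, chr11:69580109-69580358, plus strand: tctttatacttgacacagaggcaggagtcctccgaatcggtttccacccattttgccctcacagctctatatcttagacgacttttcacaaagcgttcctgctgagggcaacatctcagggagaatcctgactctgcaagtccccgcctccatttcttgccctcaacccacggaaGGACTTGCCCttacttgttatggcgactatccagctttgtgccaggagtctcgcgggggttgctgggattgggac
The window of the upstream Cdkn1a start held 2 half-sites, 73 and 51 bases before the start and 12 bases apart. Only exact matches to the consensus were marked and counted. The 10 bases directly after the half-site at 51 bases differ from the consensus in 1 base and are therefore unmarked. The upstream start lies 2790 bases upstream of another start of Cdkn1a, whose window held no match. Mdm2 had 1 half-site 186 bases before its start and Trp53 had 1 at 75 bases before its start. Of all 32851 promoter windows of the same length, 7.13% held at least 1 half-site on either strand, and 0.0639% held a pair with at most 13 bases between. None of the windows of Cdkn1b, Cdkn2a, Cdkn2b and Cdkn2c held a half-site. A match is a description of letters and no evidence of binding. Mdm2 had only 1 window here. Bases outside the windows, such as introns, were not read, so p53 sites there would be missed. The Cdkn2a windows below show in capitals the GC box GGGCGG, read on both strands, which 32.7% of all windows hold.
Cdkn2a, upstream start, chr4:89294620-89294869, minus strand: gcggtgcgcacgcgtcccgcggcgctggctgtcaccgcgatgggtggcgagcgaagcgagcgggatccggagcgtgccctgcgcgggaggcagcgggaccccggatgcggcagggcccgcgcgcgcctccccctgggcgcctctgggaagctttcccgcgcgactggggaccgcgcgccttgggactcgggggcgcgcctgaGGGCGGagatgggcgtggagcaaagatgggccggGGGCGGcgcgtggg
Cdkn2a, downstream start, chr4:89282193-89282442, minus strand: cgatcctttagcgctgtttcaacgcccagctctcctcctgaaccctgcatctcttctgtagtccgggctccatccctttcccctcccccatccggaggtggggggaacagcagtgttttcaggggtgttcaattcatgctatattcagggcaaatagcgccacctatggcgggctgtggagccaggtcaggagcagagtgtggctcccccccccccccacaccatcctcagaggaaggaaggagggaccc
These starts lie 12427 bases apart, and by textbook knowledge the upstream one gives the p19ARF transcript and the downstream one the p16 transcript. The upstream window held 2 GC boxes and the downstream one held 0. Cdkn2b is the neighbor of Cdkn2a, its window lies at chr4:89311033-89311282, and its start is 16413 bases from the nearer Cdkn2a start. The array table has a single row for Cdkn2a, the positions of its probes were not used here, and the p16 and p19ARF transcripts are not told apart by the values below.

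The values are robust multi-array average (RMA) values, background corrected, normalized between arrays and summarized by the authors into 1 log2 value per gene, so that a difference of 1 is 2-fold. The medians of the arrays lay between 5.59 and 5.76. Across genes, pairs of ESC arrays had r = 0.996 to 0.998, NP106 with NP107 at r = 0.997, and NP39 with both at r = 0.978 to 0.979. Genes are not independent replicates. The marker genes that could be named differed as the labels of the arrays say. For the neural markers the naming largely fixed this direction. Names came from a printed list that holds nearly only genes that rose in NPCs. Of 8 ESC markers only 1 could be named, Pou5f1, which defines pluripotent cells. It read 12.42 to 12.46 in ESCs and 3.61 to 3.83 in NPCs. The 5 named progenitor markers of 7 (Nes, Fabp7, Slc1a3, Vim, Sox9) had a summed linear signal of 641 to 758 in ESCs. It was 14347, 13583 and 18568 in NP106, NP107 and NP39. The arrays measure bulk RNA, in which fewer cells of a type and less RNA per cell cannot be told apart. Because NP39 stands apart, the 8 genes are given on each NPC array by itself, and with and without NP39.

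**Figure D1:**
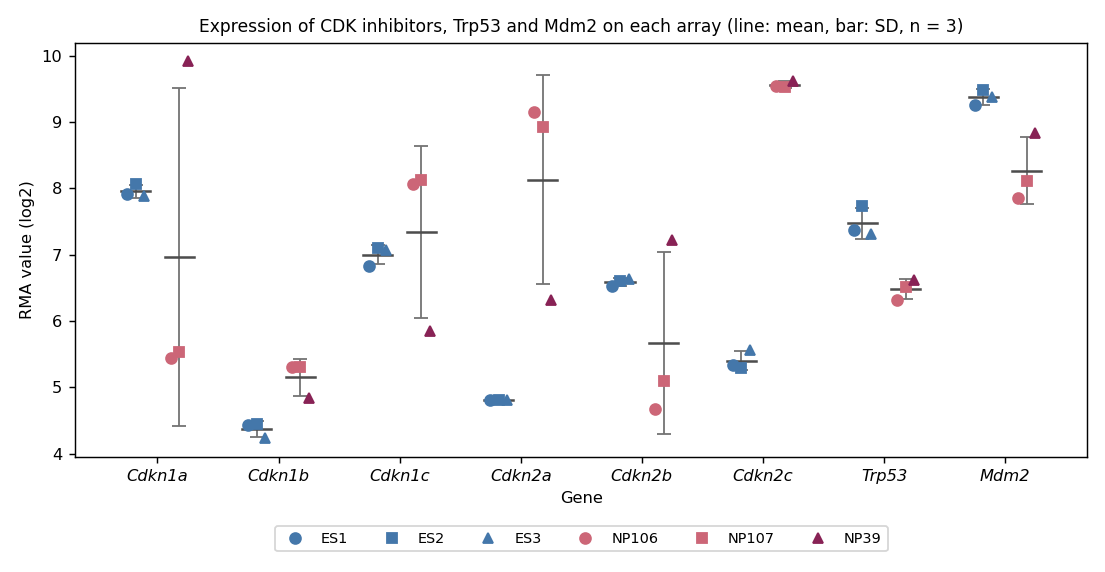
RMA values (log2, y axis) of the 8 genes (x axis) on each of the 3 ESC arrays (blue) and the 3 NPC arrays (red, with NP39 as a dark triangle), with a line for the mean and a bar for the SD of each cell type. NP39 lies far from NP106 and NP107 for Cdkn1a, Cdkn1c, Cdkn2a and Cdkn2b, while the 3 NPC arrays lie close together for Cdkn2c.

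Among the INK4 genes, Cdkn2c (ENSMUSG00000028551_at), which encodes p18, was uniformly high in NPCs. It read 5.34, 5.30 and 5.56 in ES1, ES2 and ES3 and 9.54, 9.53 and 9.63 in NP106, NP107 and NP39. Each NPC array was above each ESC array, and NP39 was like the others, 0.09 above their mean. The means of 9.56 ± 0.05 in NPCs and 5.40 ± 0.14 in ESCs (SD, n = 3 arrays each) differ by 4.16 on the log2 scale (standard error 0.10), or 17.9-fold. Here and below, the standard error of a difference is the moderated one of the limma fit. That fit draws the variance of each gene toward the variances of all genes. For Cdkn1a, Cdkn1c, Cdkn2a and Cdkn2b it is therefore smaller than the printed SDs alone would give. Ranked among all genes of its array, Cdkn2c stood at the percentiles 44.5 to 47.4 on ESC arrays and 92.7 to 93.5 on NPC arrays.

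Cdkn2a (ENSMUSG00000044303_at), the gene of p16 and p19ARF, was also above its ESC level in every NPC array, but by unequal amounts. In ESCs it read 4.81 on each array, with an SD of only 0.00153. This lies below the medians of the ESC arrays, 5.75 to 5.76. Whether it is above background was not assessed, and the folds below rest on this low level. In NPCs Cdkn2a read 9.15 in NP106, 8.93 in NP107 and 6.31 in NP39. The mean of NP106 and NP107 was thus 4.23 above the ESC mean, or 18.7-fold, while NP39 was 1.504 above it, or 2.84-fold. The gap of NP39 from the mean of NP106 and NP107 was -2.72, or 6.61-fold, whereas NP106 minus NP107 was only 0.22. The percentile of Cdkn2a was 90.3 and 88.8 in NP106 and NP107, 58.6 in NP39 and 36.9 to 38.1 in ESCs. Over all 3 NPC arrays the mean of 8.13 ± 1.58 (SD, n = 3) differed from the ESC mean of 4.81 by 3.32 (standard error 0.69), a value that stands for none of the NPC arrays.

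Cdkn2b (ENSMUSG00000073802_at), the neighbor of Cdkn2a that encodes p15, ran the other way. Its ESC values were 6.53, 6.61 and 6.64. NP106 and NP107 were lower, at 4.68 and 5.10, and NP39 was higher, at 7.23. In percentile, Cdkn2b stood at 60.1 to 61.8 in ESCs, at 37.8 and 43.8 in NP106 and NP107 and at 69.9 in NP39. Whether the low values in NP106 and NP107 are above background was not assessed, and the folds that use them rest on this low level. The mean of NP106 and NP107 differed from the ESC mean by -1.70 (3.26-fold) and NP39 by 0.64 (1.55-fold). NP39 thereby stood 2.34 above the mean of the other NPC arrays, or 5.06-fold. The array with the least Cdkn2a among NPCs was therefore the one with the most Cdkn2b. The mean over 3 NPC arrays, 5.67 ± 1.37 against 6.59 ± 0.06 in ESCs (SD, n = 3 each), hid these opposite positions, with a difference of -0.92 (standard error 0.60).

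Of the CIP/KIP genes, Cdkn1a (ENSMUSG00000023067_at), which encodes p21, split the NPC arrays most. It read 7.92, 8.07 and 7.89 in ES1, ES2 and ES3. In NP106 and NP107 it read 5.45 and 5.54, below every ESC array, and in NP39 it read 9.91, above every ESC array. NP106 and NP107 differed from the ESC mean by -2.47 on average, or 5.52-fold, and NP39 by 1.95, or 3.87-fold. The gap of NP39 from the other NPC arrays was 4.42, or 21.4-fold, against a difference of 0.09 between NP106 and NP107. Among all 17144 genes, 5 had a larger gap in the same direction. In percentile of the array, Cdkn1a stood at 48.2 and 49.3 in NP106 and NP107, at 77.7 to 79.4 in ESCs and at 94.9 in NP39. The mean of NPCs was 6.97 ± 2.55 and that of ESCs 7.96 ± 0.10 (SD, n = 3 each), and their difference of -0.99 had a standard error of 1.12.

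Cdkn1c (ENSMUSG00000037664_at), the imprinted gene of p57, crossed the ESC range in the opposite sense. ESCs read 6.84, 7.10 and 7.07. NP106 and NP107 were above them at 8.07 and 8.12, and NP39 was below them at 5.84. NP106 and NP107 exceeded the ESC mean by 1.09 (2.13-fold) on average, NP39 differed from it by -1.16 (2.23-fold), and the gap between NP39 and the other NPC arrays was -2.25, or 4.76-fold. The NPC mean of 7.34 ± 1.30 was 0.34 above the ESC mean of 7.002 ± 0.14 (SD, n = 3 each), with a standard error of 0.58, and the sign of this difference turned when NP106 or NP107 was left out (-0.020 and -0.047).

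Cdkn1b (ENSMUSG00000003031_at), which encodes p27, showed a smaller difference in which the NPC arrays shared their side. It read 4.44, 4.45 and 4.24 in ESCs and 5.31, 5.31 and 4.83 in NP106, NP107 and NP39, so that NP39 was the lowest of the NPC arrays but still above all ESC arrays. The mean was 5.15 ± 0.27 in NPCs and 4.37 ± 0.12 in ESCs (SD, n = 3 each), a difference of 0.78 (standard error 0.15) or 1.71-fold. In percentile among all genes it went from 27.8 to 33.0 in ESCs to 46.3 in NP106 and NP107 and 40.2 in NP39. p27 is known to be regulated largely through stability of the protein, which arrays do not measure.

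Trp53 (ENSMUSG00000059552_at) was lower in every NPC array, and NP39 did not stand far from the others. Its values were 7.38, 7.73 and 7.31 in ESCs and 6.32, 6.51 and 6.62 in NP106, NP107 and NP39. The NPC mean of 6.48 ± 0.15 differed from the ESC mean of 7.47 ± 0.23 (SD, n = 3 each) by -0.99 (standard error 0.14), or 1.99-fold. NP39 exceeded the mean of NP106 and NP107 by 0.20, about as much as NP106 and NP107 differed from each other (NP106 minus NP107 was -0.19). Levels of p53 protein and its activity are set mainly after translation and were not measured.

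Mdm2 (ENSMUSG00000020184_at) was likewise below its ESC level in every NPC array, least so in NP39. ESCs read 9.25, 9.49 and 9.38. NP106 and NP107 read 7.86 and 8.11, and NP39 read 8.84. NP106 and NP107 differed from the ESC mean by -1.39 on average (2.63-fold) and NP39 by -0.53 (1.45-fold), with a gap of 0.86, or 1.81-fold, between NP39 and the other NPC arrays. Over all NPC arrays the mean was 8.27 ± 0.51 against 9.38 ± 0.12 (SD, n = 3 each), a difference of -1.11 (standard error 0.24). Cdkn1a and Mdm2, both p53 target genes, were higher in NP39 than in NP106 and NP107, by 4.42 and 0.86. The transcript of p53 itself was higher by 0.20. Whether p53 has a part in these gaps was not tested.

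**Figure D2:**
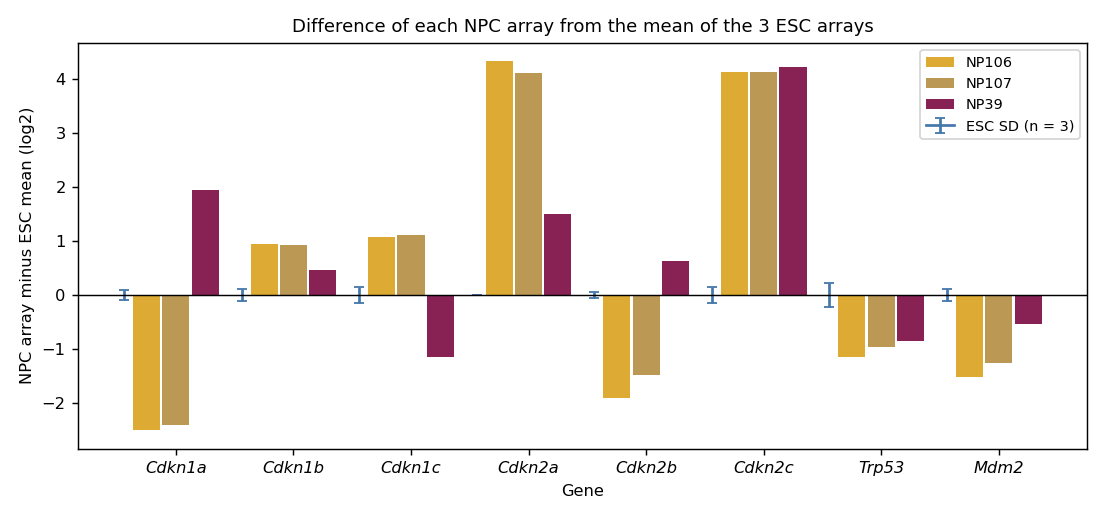
Difference of each NPC array from the mean of the 3 ESC arrays (log2, y axis) for the 8 genes (x axis), with the SD of the ESC arrays as a blue bar at 0. Cdkn2c is 4.13 to 4.22 above ESCs in every NPC array, whereas Cdkn1a and Cdkn2b are below 0 in NP106 and NP107 and above 0 in NP39, and Cdkn1c is the reverse.

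Across the 8 genes, the largest SD among ESC arrays was 0.23 (Trp53) and the largest difference between NP106 and NP107 was 0.42 (Cdkn2b). Over all genes, the median SD among ESC arrays was 0.09 and the median size of the difference between NP106 and NP107 was 0.11. NP39 differed from the mean of NP106 and NP107 by more than 1 on the log2 scale at 4 of the 8 genes, higher for Cdkn1a and Cdkn2b and lower for Cdkn1c and Cdkn2a, where 4.0% of all 17144 genes had such a gap (2.2% with NP39 higher and 1.8% with NP39 lower). The median size of the gap was 1.55 over the 8 genes and 0.17 over all genes. At 3 of the 8 genes (Cdkn1a, Cdkn1c, Cdkn2b) NP106 and NP107 lay beyond the ESC range on 1 side and NP39 beyond it on the other, which held for 4.87% of all genes and, with a gap over 1, for 0.945%. Since the genes were picked with this gap known, these counts describe them and support nothing. An array set against 2 others has no replicate, and no test was made of it.

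**Figure D3:**
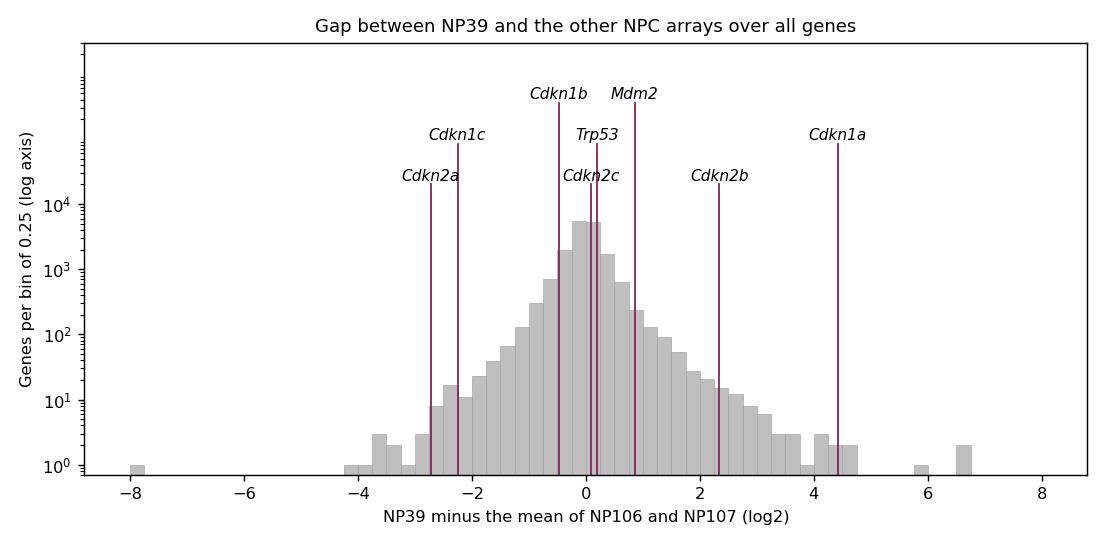
Number of genes (y axis, log scale) by the gap of NP39 from the mean of NP106 and NP107 (x axis, log2, bins of 0.25), with a vertical line for each of the 8 genes. Cdkn1a (4.42) and Cdkn2b (2.34) lie in the right tail and Cdkn2a (-2.72) and Cdkn1c (-2.25) in the left tail, while Cdkn2c, Trp53 and Cdkn1b lie near the bulk of genes.

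Markers of neural cell types also differed between NP39 and the other NPC arrays. Of 5 neuron markers, 2 could be named (Dcx and Syt1), with a summed linear signal of 22.9 to 25.7 in ESCs, 151 and 164 in NP106 and NP107 and 43.4 in NP39. In NPCs most of this signal came from Syt1, which read 6.93, 7.02 and 4.90 in NP106, NP107 and NP39. Dcx was low, at 4.86, 5.06 and 3.76 on these arrays and 3.33 to 3.68 in ESCs. The 1 named astrocyte marker of 4, S100b, read 6.32, 6.13 and 7.02 in NP106, NP107 and NP39 and 3.946 to 4.0001 in ESCs. The 2 named oligodendrocyte lineage markers of 5 went opposite ways in NP39, with a gap of -0.22 for Olig1 and 0.65 for Olig2, and their summed signal, most of it from Olig1, was 11415 to 11627 in NPCs. Of the 5 named progenitor markers, Sox9, Slc1a3 and Fabp7 were higher in NP39, with gaps of 1.27, 1.10 and 0.72, while Nes and Vim had gaps of -0.07 and -0.18. None of the 6 fibroblast markers had a name here. The part of these cell types in the gap of Cdkn1a, Cdkn1c, Cdkn2a and Cdkn2b was not tested.

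In a fit of all 17144 genes with limma (all 6 arrays, no covariates, Benjamini-Hochberg adjustment), a gene counted as called where the adjusted p lay under 0.05 and the means differed by over 1.5-fold. This rule was met by 34.1% of all genes, 15.4% higher and 18.7% lower in NPCs, and by 5 of the 8 genes, namely Cdkn1b, Cdkn2a and Cdkn2c on the higher side and Trp53 and Mdm2 on the lower side. The same 5 genes were those without overlap between the arrays of the cell types (3 above and 2 below), which held for 58.7% of all genes (26.1% above and 32.6% below). Cdkn1a, Cdkn1c and Cdkn2b did not meet the rule. Nothing is read from these counts, because the genes were picked with this contrast known. Without NP39 all 8 genes met the rule, beside 36.2% of all genes, and the differences of Cdkn1a, Cdkn1c and Cdkn2b were then -2.47, 1.09 and -1.70.

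The genes around the inhibitors were taken from lists of 88 genes (cyclins, CDKs, RB and E2F factors, p53 targets, p53 regulators and regulators of the Ink4a-Arf-Ink4b locus), of which 11 could be named. Names came from a printed list that holds nearly only genes that rose in NPCs, so all 11 met the call rule on the higher side, which the naming largely fixed, and the 77 others are not analysed here. The count therefore shows nothing of the direction of a list, and the differences below are given as descriptions, with no test. Of the 26 genes of the cell cycle list 4 were named. Ccnd1 (cyclin D1), an activator of CDK4 and CDK6, read 9.06, 9.15 and 9.04 in ESCs and 12.35, 12.38 and 12.11 in NP106, NP107 and NP39. The NPC mean was 3.20 above the ESC mean (standard error 0.10), and 3.28 above it without NP39. Ccnd2 (cyclin D2) read 5.61, 5.79 and 5.74 in ESCs and 10.12, 10.07 and 11.13 in the NPC arrays in the same order, a difference of means of 4.73 (standard error 0.27), or 4.39 without NP39. It was thus highest in NP39, where Cdkn1a was highest as well. Both named D-type cyclins and Cdkn2c, which opposes the kinases they activate, were above every ESC array in each NPC array.

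Ccne2 (cyclin E2), a partner of CDK2, had NPC values of 8.02, 7.82 and 7.35 and a difference of means of 1.98, or 2.17 without NP39. Rbl2 (p130), a relative of RB that binds E2F factors in resting cells, read 6.40, 6.47 and 5.93, with a difference of 1.17, or 1.34 without NP39. Both were lowest in NP39 among NPC arrays but above every ESC array.

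Among 27 p53 targets other than Cdkn1a and Mdm2, Plk2 alone was named. This polo-like kinase gene read 7.56, 7.87 and 7.60 in ESCs and 11.07, 11.27 and 11.30 in NP106, NP107 and NP39, a difference of means of 3.54 (standard error 0.12), or 3.49 without NP39. Its gap in NP39 was 0.13, against 4.42 for Cdkn1a and 0.86 for Mdm2. Among 17 regulators of p53, Rpl5, a ribosomal protein known to bind Mdm2, was the one named. It read 10.23, 10.29 and 10.12 in the NPC arrays, with a difference of 1.92, or 1.96 without NP39. Ribosomal protein genes have many near-identical copies in the genome, and its value is uncertain for that reason.

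Of 18 regulators of the Ink4a-Arf-Ink4b locus 5 were named. Bmi1, a Polycomb protein that represses Cdkn2a, read 5.41, 5.37 and 4.89 in ESCs and 9.49, 9.56 and 9.71 in NP106, NP107 and NP39, a difference of means of 4.36 (standard error 0.15), or 4.30 without NP39. Bmi1 and Cdkn2a were hence both above their ESC values in each NPC array. Hmga2, which encodes a chromatin protein known to lower Cdkn2a in young neural stem cells, read 5.97, 6.19 and 5.97 in ESCs and 7.55, 7.70 and 8.87 in the NPC arrays. The difference of means was 1.99 (standard error 0.33), or 1.58 without NP39. Its NP39 value, 1.24 above the mean of the other NPC arrays, was on the array with the least Cdkn2a among NPCs. Like Bmi1, Hmga2 was above its ESC values in each NPC array, as was Cdkn2a. A part of Hmga2 in the gap of Cdkn2a was not tested. The Polycomb gene Cbx8 read 5.39, 5.49 and 5.63 in NP106, NP107 and NP39, with a difference of 0.94, or 0.87 without NP39. Ets1, a factor that can activate p16 transcription, read 7.20, 7.21 and 7.14, with a difference of 2.35, or 2.37 without NP39.

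The named genes with the profile most like that of Cdkn2a over the 6 arrays were Tmem178, Il17d, Lrp4, Pf4 and Plce1. Likeness was the root mean square difference between the profiles after the ESC mean of each gene was subtracted, over 2002 other named genes, and it was 0.16, 0.19, 0.20, 0.21 and 0.23 for these 5. They were also the 5 nearest among all genes, with or without a name. Their gaps in NP39 lay between -2.18 (Lrp4, a lipoprotein receptor family member) and -2.91 (Pf4, a chemokine), where that of Cdkn2a was -2.72. For Cdkn2c the nearest were Tmem229a, Pkia (an inhibitor of protein kinase A) and Sall3 (a zinc finger factor), with a likeness of 0.09, 0.11 and 0.13. Their gaps in NP39 were between 0.06 and 0.30, where that of Cdkn2c was 0.09. These genes are given for their values alone.

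**Figure D4:**
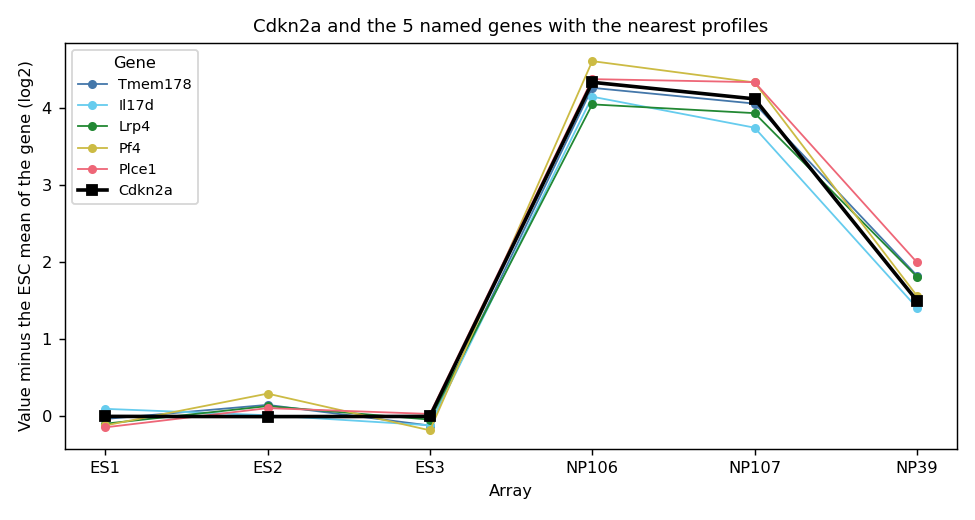
Values of Cdkn2a (black) and of the 5 named genes with the nearest profiles (y axis, log2, each minus its ESC mean) on the 6 arrays (x axis). All lie near 0 in ESCs, are highest in NP106 and NP107, and fall between these levels in NP39, where Cdkn2a is at 1.504.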

How the data were processed

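RNA from 3 ESC and 3 NPC samples was hybridized to Affymetrix mouse arrays, 1 array per sample. The authors deposited log2 values made by RMA, 1 per Ensembl gene, using the updated BrainCDF annotation, for which the sources used here give neither a version nor a genome build. Of 17208 rows, 64 control probe sets were left out, and no filter was applied to the other 17144. Groups and replicate numbers came from the sample labels, NP106, NP107 and NP39 being NPC replicates 1, 2 and 3. The 8 genes, the gene lists and the tests were chosen with earlier results of these data known. No row of the RefSeq table at hand carries an Ensembl identifier, so other genes were named by equality of all 6 values, within 0.0001, with rows printed by the authors with a name (2010 genes in all, the 8 included). The genes named in the text are the 8, every list gene that could be named (except 1, which is not reported here), and the 5 and 3 named genes with profiles nearest to Cdkn2a and Cdkn2c. Differential expression was fitted with R 4.3.3 and limma 3.58.1 (two-sided, from lmFit and eBayes), with the thresholds of the study's methods, whose moderated Welch test was rebuilt as an alternative. The fit was tested on simulated data. A percentile is the share of all genes whose value on the same array does not exceed that of the gene. Arrays carry no count of molecules, and their number limits precision. With 3 arrays a side, no exact permutation test can reach 0.05, and none was run. Promoter windows came from RefSeq (GRCm38.p6). Python 3.11.15, pandas 2.3.3 and matplotlib 3.10.9 made tables and figures. Alternatives were other tests, a replicate block, quantile normalization, median centring, filters, fold thresholds and each array left out.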

Additional observations from a re-analysis of the deposited data

How the results depend on the processing

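Cdkn1a, Cdkn1b, Cdkn2a, Cdkn2b, Cdkn2c, Trp53 and Mdm2 kept the sign of their difference under quantile normalization, median centring and each array left out. Cdkn1c did not: its 0.34 became -0.020 without NPC replicate 1 (NP106) and -0.047 without NPC replicate 2 (NP107), and 1.09 without NP39. With each array left out the differences lay between -2.47 and -0.23 for Cdkn1a, 0.69 and 0.93 for Cdkn1b, -0.047 and 1.09 for Cdkn1c, 2.81 and 4.23 for Cdkn2a, -1.70 and -0.43 for Cdkn2b, 4.11 and 4.25 for Cdkn2c, -1.07 and -0.86 for Trp53, and -1.39 and -0.90 for Mdm2. The value without NP39 was the lowest for Cdkn1a (-2.47), Cdkn2b (-1.70) and Mdm2 (-1.39). It was the highest for Cdkn1b (0.93), Cdkn1c (1.09) and Cdkn2a (4.23). Median centring gave 4.32 for Cdkn2c, and quantile normalization gave gaps in NP39 of -0.47 for Cdkn1b and 0.12 for Cdkn2c. Centring moved the median difference of all genes by 0.15 on the log2 scale, and the share of called genes that were higher in NPCs went from 45.1% to 55.6%.

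The call rule was met by 5 of the 8 genes under the moderated Welch test, limma with a trend or with robust variances, quantile normalization, median centring, the filter at the 25th percentile and no fold threshold. The filter at the median left out Cdkn1b and 4 met the rule, and with a fold over 2 it was 3 (Cdkn2a, Cdkn2c and Mdm2). With each array left out the number was between 5 and 8, the 8 being without NP39. Over all genes, the rule gave 5851 calls (2638 higher, 3213 lower), and with a fold over 2 it was 3592 (1615 and 1977). Leaving out each array in turn gave between 5637 and 6199 genes, with 2490 to 2866 higher and 3131 to 3333 lower.

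ESC and NPC arrays share the replicate numbers 1, 2 and 3. The correlations of their deviations (array minus the mean of its cell type) were 0.0264, 0.0110 and -0.00645. The deviations of a gene cancel within each cell type, so these correlations are not independent and cannot exclude a pairing. A replicate block in the fit gave 5867 calls (2649 higher, 3218 lower) and 5 of the 8 genes.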
